A study of Mus musculus with 12 samples.

Results

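The chaperonin containing TCP1 (CCT, also called TRiC) was examined through the 8 genes for its cytosolic subunits, Tcp1, Cct2, Cct3, Cct4, Cct5, Cct6a, Cct7 and Cct8. They were taken as a family, from every probe set that the array's annotation assigns to 1 of these genes alone, and not by how they moved. This gave 25 probe sets for 8 of the 18193 genes that have such a probe set, and 20 of the 25 were bright enough to be tested. Total RNA of 12 mouse hearts was hybridized to 12 Affymetrix arrays, 1 heart per array. Integrin linked kinase (ILK) is a scaffold protein at the sites where muscle cells attach to the matrix, and each transgenic line over-expresses a mutated human ILK specifically in the heart, from a promoter not given in the sources used here.

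There were 3 hearts of the R211A line (TgR211A), 3 of the S343D line (TgS343D) and 6 of wild type littermates (WT). R211A is a change in ILK described in the study as resistant to activation, and S343D is described as catalytically active. All mice were C57BL/6, 8 to 9 weeks old, and labelled female except 1 WT mouse (replicate 1 of the first set) labelled male. Tissue is given as heart, and as left ventricle in 1 label. No treatment or surgery is given by the labels, whereas the methods describe R211A groups with and without infarction for these hybridizations. WT hearts come in 2 sets of 3, and no source used here states which set belongs to which line, so all 6 were the reference. Heart numbers 1 to 6 hold the S343D line and the first WT set, numbers 7 to 12 the R211A line and the second. Line and range of numbers therefore cannot be told apart between the lines. Within each range, a transgenic heart and the WT heart of the same replicate number have consecutive heart numbers. The tests against all 6 WT hearts did not use these pairs, and a comparison by pairs is given further below. The replicates are separate mice.

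CCT is built of 2 stacked rings, each with 1 copy of each of the 8 subunits, and uses ATP to fold newly made proteins inside its cavity. Its best known clients are actins and tubulins, and it also folds proteins with WD40 repeats such as G protein beta subunits. In heart muscle these clients feed the thin filaments and the microtubules. Prefoldin hands unfolded actin and tubulin to CCT, and phosducin-like proteins act with it on other clients.

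Start site sequences of 7 of the 8 genes were read from RefSeq (GRCm38.p6), as 9 windows of the 250 bases before a start. Parts of them are shown because chaperone genes are known targets of heat shock factor 1 (HSF1), which binds heat shock elements. A match of letters is a description only. Capitals mark the letters CCAAT, the GC box GGGCGG and heat shock elements of 2 units (GAANNTTC or TTCNNGAA), each on either strand. The lines are Tcp1 (chr17:12916189-12916328, plus strand), Cct2 (chr10:117063853-117063972, minus strand), the second start of Cct2 (chr10:117063394-117063423, minus strand), Cct5 (chr15:31601847-31601966, minus strand) and Cct6a (chr5:129787236-129787355, plus strand).
Tcp1: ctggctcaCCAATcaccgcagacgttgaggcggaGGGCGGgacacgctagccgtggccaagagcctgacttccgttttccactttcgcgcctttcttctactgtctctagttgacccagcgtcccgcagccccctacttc
Cct2: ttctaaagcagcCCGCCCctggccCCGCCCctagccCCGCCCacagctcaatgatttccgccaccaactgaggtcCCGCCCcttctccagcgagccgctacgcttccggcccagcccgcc
Cct2 second start: agtgaaGAAGTTTCtagcaggacctgctgg
Cct5: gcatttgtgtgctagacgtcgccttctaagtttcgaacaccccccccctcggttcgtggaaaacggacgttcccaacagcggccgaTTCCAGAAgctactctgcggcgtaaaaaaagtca
Cct6a: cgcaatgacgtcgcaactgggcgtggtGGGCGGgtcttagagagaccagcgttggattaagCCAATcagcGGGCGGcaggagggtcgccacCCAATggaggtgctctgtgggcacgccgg

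The GC box occurred in 8 of the 9 windows, against 32.7% of all 32851 windows, and CCAAT in 4 of 9 (Tcp1, Cct3, Cct6a and Cct7), against 33.8%. A heat shock element of 2 units was found in 1 window each of Cct2 and Cct5, that is in 22.2% of the windows. It was found in 6 of 15 windows of inducible HSF1 target genes (40%) and in 12.8% of all windows. An element of 3 units was found in 0 CCT windows, in 0 windows of the inducible HSF1 targets and in 0.466% of all windows. Binding of HSF1 was not tested. The ETS letters CCGGAAG occurred in windows of Cct2 and Cct8 (6.91% of all windows), and no CCT window held the TATA box TATAAA (12.4%) or the E-box CACGTG (6.02%).

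The values are MAS5 signal intensities, compared on the log2 scale with limma over 22519 probe sets, with p-values adjusted by Benjamini-Hochberg over all of them and 0.05 as the threshold. Over the 66 pairs of arrays the correlation of log2 signal was between 0.933 and 0.945, and Ilk followed the labels, with a signal of 8799 ± 682 in TgR211A hearts (SD, n = 3), 3515 ± 434 in TgS343D hearts (SD, n = 3) and 601 ± 39 in WT hearts (SD, n = 6). The mouse probes may read the human transcript differently. All 9 cardiomyocyte markers were above the signal limit, as were the ventricle markers Myl2 and Irx4, whereas Hey2 was below it. No gene of 12 cell type marker lists passed the test in either line against WT, and 6 of 7 proliferation markers on the array were below the limit. The summed atrium markers spanned 2771 to 20310 in TgR211A hearts, 2006 to 21040 in TgS343D hearts and 2723 to 16100 in WT hearts. The part of these markers in the results was not tested. In RNA of whole tissue, fewer cells of a type and less RNA per cell cannot be told apart.

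No CCT subunit gene passed the test in TgR211A hearts against WT. Each gene was read from its probe set of highest mean signal, and all 8 log2 differences lay above 0, between 0.08 (Cct8) and 0.12 (Tcp1), or 1.06-fold to 1.09-fold. Adjusted p ran from 0.656 to 0.863 (limma), and 0.206% of the 11189 genes tested passed. The median of the 8 differences was 0.11, and that of all genes was -0.0014. Of all genes 49.5% lay above 0, and since the subunits share arrays and correlate, their common sign is a description. Only Cct4 had an unadjusted p under 0.05, against 3.47% of all genes that did so in the same direction. No subunit had groups without overlap, against 2.2% of all genes higher in TgR211A hearts. The upper ends of the 95% intervals reached 1.21-fold at most.

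**Figure D1:**
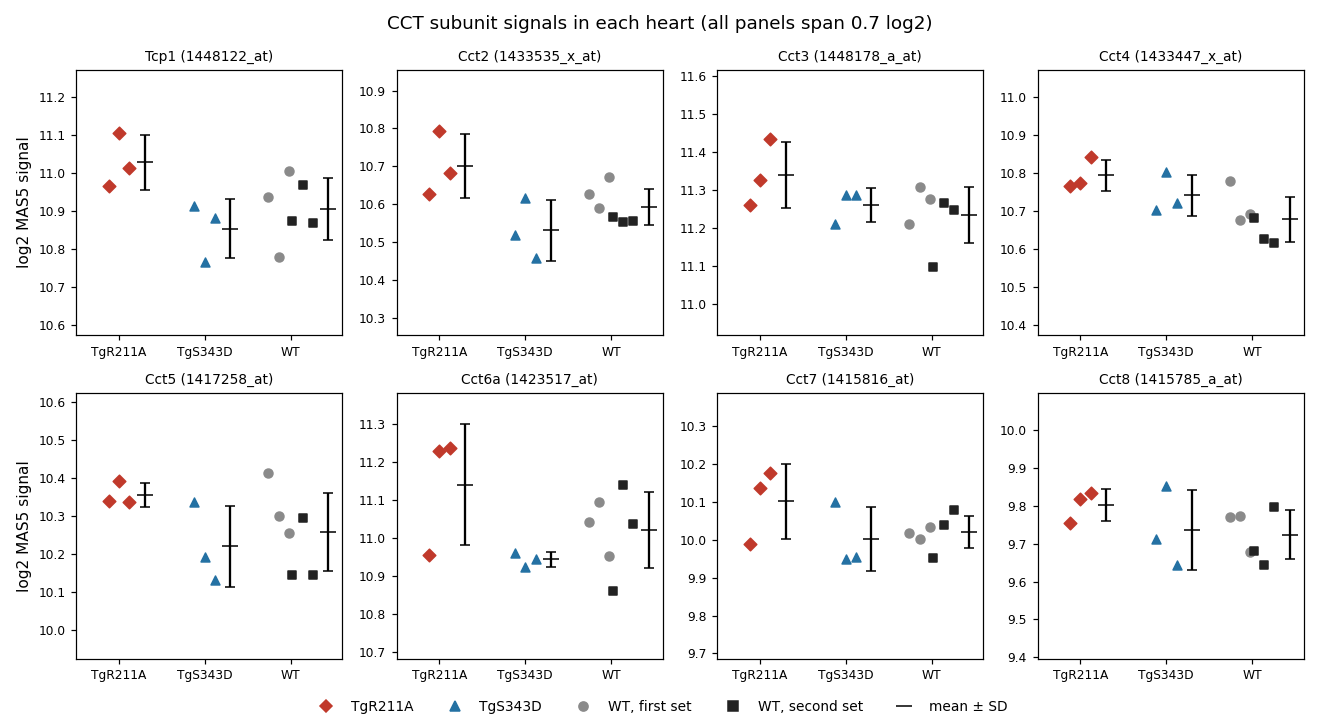
Each panel plots the log2 signal of 1 CCT subunit in every heart, with TgR211A (3), TgS343D (3) and WT (6, in 2 sets) from left to right and the mean ± SD of each group beside its points. In every panel the TgR211A points overlap the WT points, while the TgR211A mean is above the WT mean by 0.08 to 0.12.

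Tcp1, which encodes the alpha subunit, had signals of 1999, 2205 and 2069 in TgR211A hearts and 1929, 1742 and 1886 in TgS343D hearts, while WT hearts lay between 1756 and 2056 with a median of 1919. All TgR211A hearts were above all TgS343D hearts, and 2 of the 3 were above all WT hearts while the third was inside the WT range. The difference of TgR211A from WT was 0.12 ± 0.06 (SE) with an adjusted p of 0.690 (limma), and an exact two-sided permutation test gave p = 0.0714.

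Cct2, the beta subunit, had signals of 1581, 1774 and 1645 in TgR211A hearts and 1467, 1570 and 1406 in TgS343D hearts, with WT hearts between 1502 and 1633 and a median of 1529. Again every TgR211A heart was above every TgS343D heart, and the lowest TgR211A heart was inside the WT range. The difference of TgR211A from WT was 0.11 ± 0.06 (SE), adjusted p = 0.728 from limma and exact permutation p = 0.0357. Without TgR211A replicate 2 it was 0.061.

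Cct4, the delta subunit, had signals of 1740, 1751 and 1834 in TgR211A hearts, 1665, 1787 and 1687 in TgS343D hearts, and from 1567 to 1756 in WT hearts with a median of 1638. It had the smallest spread of the 8, with a residual SD of 0.054, and 1 WT heart lay above 2 of the 3 TgR211A hearts. The difference of 0.12 ± 0.05 (SE) had an adjusted p of 0.656 (limma). It was read from 1433447_x_at, which like the Cct2 probe set 1433535_x_at is of a type whose probes can also match other transcripts. The other tested Cct4 probe sets differed by 0.15, 0.15, 0.11 and -0.0016. Their unadjusted p was 0.102, 0.181, 0.336 and 0.992 (limma).

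Cct6a, the zeta subunit, was the most variable in TgR211A hearts, with 1986, 2402 and 2413, against 1995, 1944 and 1971 in TgS343D hearts. WT hearts lay between 1858 and 2256 with a median of 2105. Replicate 1 of TgR211A was therefore within both other groups, and without it the difference from WT was 0.21 in place of 0.12 (limma, adjusted p = 0.570). Without TgR211A replicate 2 or 3 it was 0.075 or 0.072.

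Cct5, the epsilon subunit, had 1296, 1345 and 1294 in TgR211A hearts, 1294, 1171 and 1121 in TgS343D hearts, and 1132 to 1363 in WT hearts with a median of 1240. The 3 TgR211A hearts differed little from each other, and the WT range covered all 3. The difference of TgR211A from WT was 0.10 ± 0.07 (SE), with an adjusted p of 0.832 (limma).

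Cct3, the gamma subunit, had signals of 2455, 2570 and 2767 in TgR211A hearts, 2369, 2499 and 2497 in TgS343D hearts, and 2189 to 2537 in WT hearts with a median of 2447. Cct7, the eta subunit, had 1017, 1126 and 1157 in TgR211A hearts, 1097, 989 and 992 in TgS343D hearts, and 991 to 1082 in WT hearts with a median of 1043. In both genes 2 of the 3 TgR211A hearts were above all WT hearts and replicate 1 was inside the WT range. Cct8, the theta subunit, had 864, 902 and 913 in TgR211A hearts, 839, 924 and 799 in TgS343D hearts, and 800.0 to 890.1 in WT hearts with a median of 847, so that a TgS343D heart was the highest of all. The differences of TgR211A from WT were 0.11, 0.08 and 0.08 for Cct3, Cct7 and Cct8, with adjusted p of 0.746, 0.850 and 0.863 from limma. Without TgR211A replicate 3 the differences were 0.060 for Cct3 and 0.043 for Cct7, and without replicate 1 that of Cct7 was 0.14.

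Heart by heart, all 8 genes lay above the WT mean in TgR211A replicates 2 and 3, and 6 of 8 in replicate 1. The mean deviation of the 8 genes from their WT means was 0.03, 0.14 and 0.14 on the log2 scale in TgR211A hearts. It was 0.0024, -0.0053 and -0.05 in TgS343D hearts, with 4, 4 and 2 genes above. WT hearts lay between -0.07 and 0.05. TgR211A replicates 2 and 3 were above all other hearts in this mean, and replicate 1 was inside the WT range.

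**Figure D2:**
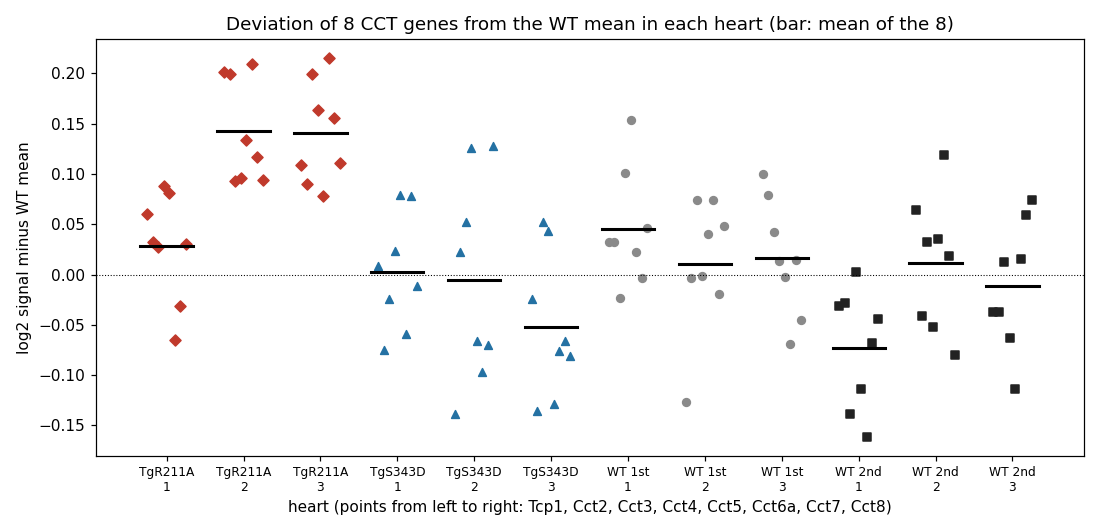
The vertical axis is the log2 signal minus the WT mean, each point is 1 of 8 CCT genes in 1 heart, and the bar is the mean of the 8. All 8 points are above 0 in TgR211A replicates 2 and 3, with means of 0.14 in both, while the WT bars lie between -0.07 and 0.05.

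In TgS343D hearts against WT, 3 of the 8 genes lay above 0 (49.8% of all genes did) and 5 below, and none passed the test, against 0.00894% of all genes. That share is Ilk alone. The differences ran from -0.08 (Cct6a) to 0.06 (Cct4) with a median of -0.03, and every adjusted p was 0.995 (limma). Single hearts moved this median, which was -0.063 without TgS343D replicate 1 and 0.0052 without TgS343D replicate 3. No gene had an unadjusted p under 0.05, against 1.98% of all genes higher and 1.81% lower, and none had groups without overlap, against 1.06% of all genes higher and 0.929% lower in TgS343D hearts. The intervals allowed changes between 0.85-fold and 1.13-fold.

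The direct comparison of the lines gave 8 of 8 genes above 0 in TgR211A hearts over TgS343D hearts (48.9% of all genes), and again none passed the test, against 0.152% of all genes. The median was 0.12 and the range 0.05 (Cct4) to 0.20 (Cct6a), with adjusted p between 0.507 and 0.866 (limma). Tcp1 and Cct2 had groups without overlap, that is 2 of 8, where 7.32% of all genes did so in the same direction. For 3 hearts against 3 the smallest p of the exact permutation test is 0.1, which both reached. Tcp1, Cct2 and Cct6a had unadjusted p under 0.05 (3.91% of all genes higher in TgR211A hearts), with differences of 0.17, 0.17 and 0.20. This comparison and the comparison with WT share the TgR211A hearts.

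As a background, the second WT set was compared with the first, and no CCT gene passed with limma (0.0179% of all genes). None had an unadjusted p under 0.05 either (3.07% of all genes higher and 4.18% lower). The median difference was -0.05, the lowest was -0.13 (Cct5), and 7 of 8 were below 0, as were 53.4% of all genes. Without replicate 1 of the second set the median was -0.014. Cct2 was lower in all 3 hearts of the second set, as were 6.93% of all genes. Taken within the ranges of heart numbers, the change of TgR211A from the second WT set minus the change of TgS343D from the first had a median of 0.16. All 8 genes lay above 0 (51.6% of all genes) and none passed (0.00894% of all genes), while Cct5 and Cct2 had unadjusted p under 0.05 (3.67% of all genes above 0), with 0.26 for Cct5 (limma, adjusted p = 0.639) and 0.24 for Cct2 (adjusted p = 0.637) the largest. With each array centred on its median, the median of all probe sets moved by 0.14 in this contrast.

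Hearts of 1 replicate number within a range of heart numbers were also set against each other, a comparison chosen after the values were seen. TgR211A hearts minus the hearts of the second WT set with the same replicate number gave 24 differences over the 8 genes, all above 0, between 0.037 and 0.24. All 8 genes were thus higher in each of the 3 pairs, as were 17.6% of all genes. Since the subunits share arrays and correlate, the 24 differences rest on 3 pairs of hearts and are a description. The 2 hearts of each pair have consecutive heart numbers (7 and 8, 9 and 10, and 12 and 11). No label states that they are pairs. TgS343D hearts minus those of the first WT set gave 6 of 24 above 0, and no gene was higher in all 3 pairs, against 13.3% of all genes. With these pairs as a block in the fit, the CCT median was 0.13 in TgR211A hearts against the second WT set, and 6 of 8 genes had an unadjusted p under 0.05, where 5.17% of all genes did so in the same direction. Without the block 3 of 8 did, and the share of all genes was not counted for that fit. No CCT gene passed with the block (lowest adjusted p = 0.384, limma), against 0.161% of all genes that rose.

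**Figure D3:**
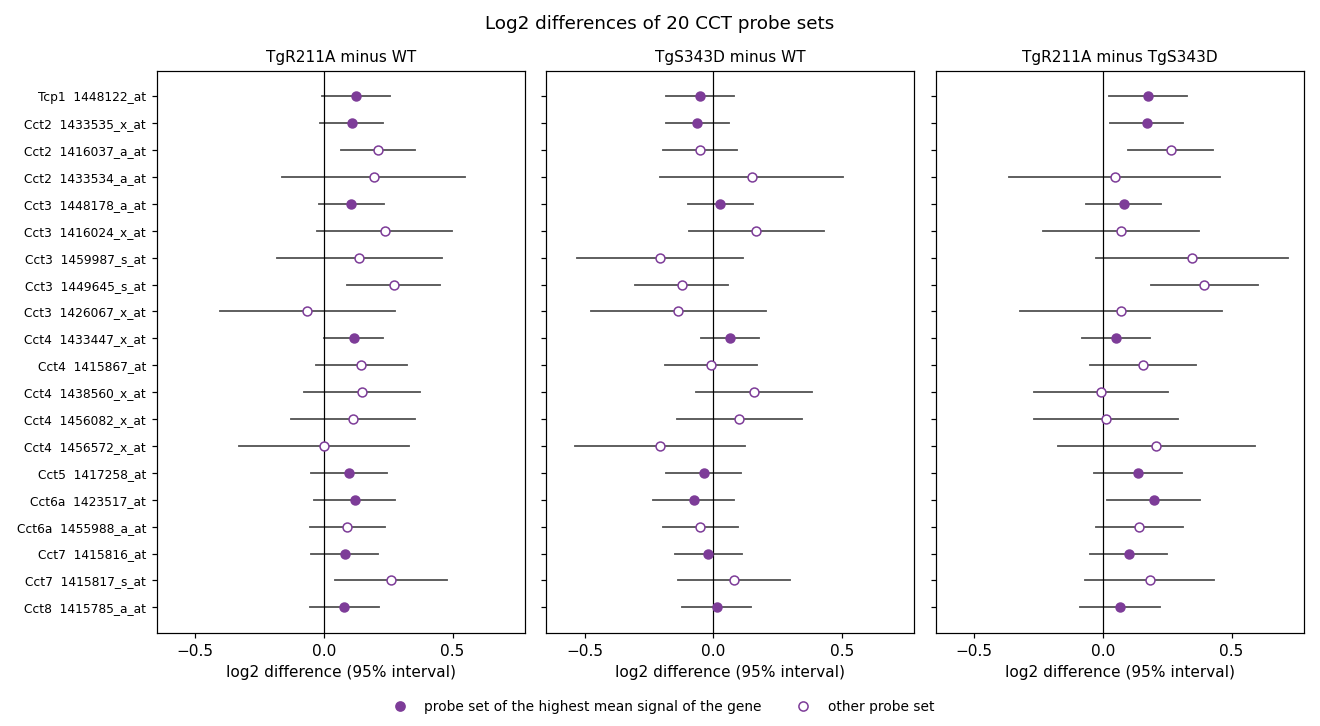
The 3 panels give the log2 difference and its 95% interval for the 20 tested CCT probe sets, with filled points for the probe set of highest mean signal of each gene. For TgR211A minus WT 18 of 20 points lie above 0 and for TgS343D minus WT 8 of 20 do.

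Over all 20 probe sets, 18 were above 0 in TgR211A hearts against WT (50.2% of all probe sets were), and 8 in TgS343D hearts against WT (50.8%). In TgR211A hearts none passed the test, against 0.204% of the probe sets tested. Unadjusted p was under 0.05 for 4 of them (3.51% of all probe sets higher). These were Cct2 1416037_a_at (0.21), Cct3 1449645_s_at (0.27), Cct7 1415817_s_at (0.26) and Cct4 1433447_x_at (0.12). Cct3 1449645_s_at had 499, 588 and 595 in TgR211A hearts and 411, 400 and 468 in TgS343D hearts, with 419 to 521 and a median of 461 in WT hearts. It was the highest of the 20 differences, 1.21-fold, with an adjusted p of 0.377 (limma), and its TgR211A and TgS343D hearts did not overlap. In that comparison of the lines 4 of 20 probe sets did not overlap, against 7.55% of all probe sets.

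Probe sets of the same gene did not always move together. Suffixes ending in _x_at or _s_at mark probe sets whose probes can also match other transcripts, and _a_at those shared by transcripts of 1 gene. For Cct2, 1433534_a_at had 1199, 945 and 1435 in TgR211A hearts, 1107, 1351 and 990 in TgS343D hearts, and 723 to 1291 in WT hearts. Its residual SD of 0.29 was above the 0.065 of Cct2 1433535_x_at, and the median over all tested probe sets was 0.18. Over the 12 hearts, 1433534_a_at had r = -0.17 with Cct2 1416037_a_at, r = 0.96 with Cct4 1438560_x_at and r = 0.88 with Cct3 1416024_x_at. Over the 25 pairs of probe sets of 1 gene, r ran between -0.38 and 0.78 with a median of 0.26. All pairs share the same 12 arrays and their scaling.

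**Figure D4:**
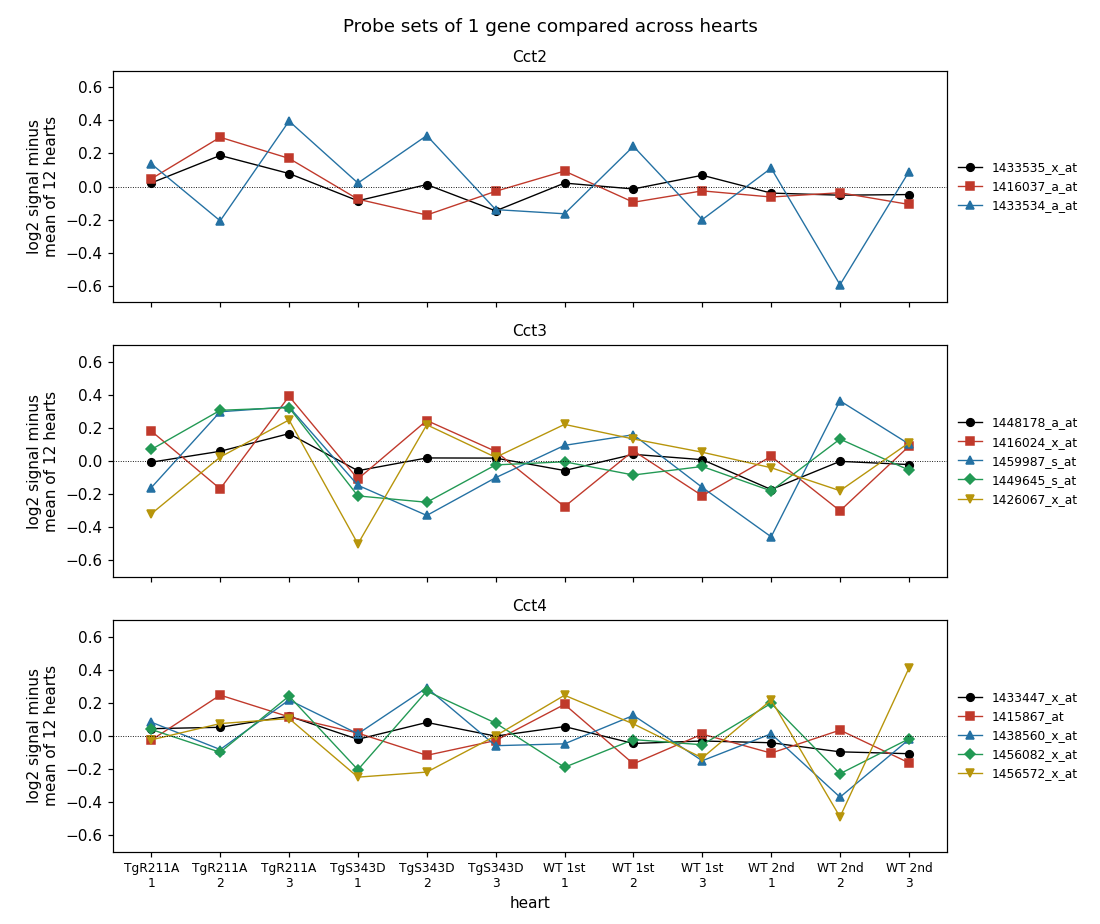
For Cct2, Cct3 and Cct4 the log2 signal of each tested probe set, minus its mean over the 12 hearts, is drawn by heart, TgR211A first and WT last. The black lines (highest mean signal) stay close to 0, while Cct2 1433534_a_at, with a residual SD of 0.29, swings in other hearts than 1416037_a_at.

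Across the 8 genes, the 28 pairs had a median r of 0.51 over the 12 hearts, between -0.05 (Tcp1 and Cct8) and 0.77 (Cct6a and Cct7), and 27 were above 0. With genotype means removed the median was 0.24. Several probe sets also moved with the arrays themselves. The correlation with the median signal of the array was -0.75 for Tcp1, -0.79 for Cct2 1416037_a_at, -0.84 for Cct4 1415867_at and 0.61 for Cct3 1416024_x_at. These are among the strongest, and other probe sets had weak ones. Examples are 0.011 for Cct8 1415785_a_at, -0.14 for Cct3 1448178_a_at and -0.18 for Cct4 1433447_x_at. Array medians were 41.5 to 46.5 in TgR211A hearts, 45.1 to 49.1 in TgS343D hearts and 43.1 to 47.1 in WT hearts. The Gapdh ratio of 3′ to 5′ signal, a measure of RNA integrity, was 0.742 to 0.783 in TgR211A hearts, 0.776 to 0.799 in TgS343D hearts and 0.771 to 0.799 in WT hearts, and Cct3 1448178_a_at had r = -0.77 with it. The same ratio for actin was 1.16 to 1.18 in TgR211A hearts, inside the WT range of 1.09 to 1.24, and Cct3 1448178_a_at had r = 0.11 with it. The part of these array measures in the differences was not tested.

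The remaining 5 probe sets, 2 of Cct3, 2 of Cct4 and 1 of Cct8, had mean signals below the limit of 43.5 and were not tested. Cct3 1439679_at lay between 15.7 and 25.9 in TgR211A hearts and Cct8 1436973_at between 0.282 and 8.26.

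The genes whose pattern over the 12 hearts was most like the mean of the 8 subunits were Ahsa1 (r = 0.92), P4ha1 (0.91), Hspe1 (0.87), Fkbp4 (0.87) and P4ha2 (0.87), of 11181 compared. Ahsa1 activates the ATPase of Hsp90, Hspe1 is the lid of the mitochondrial chaperonin, Fkbp4 is a co-chaperone of Hsp90, and P4ha1 and P4ha2 are collagen prolyl hydroxylases. The 5th and 95th percentiles of r over the genes compared were -0.53 and 0.54. None of the 5 genes passed the test in TgR211A hearts, where Ahsa1 differed by 0.36 (limma, adjusted p = 0.103).

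The cofactors that work with CCT showed no change that passed the test in either line, and no gene of the list had an unadjusted p under 0.05 (limma), where 7.52% of all genes did in TgR211A hearts and 3.79% in TgS343D hearts. The shares of all genes that passed were 0.206% and 0.00894%. Of 12 measured prefoldin, prefoldin-like and phosducin-like genes, 4 lay above 0 in TgR211A hearts against WT (49.5% of all genes did), with a median of -0.01. Pdcl3, which acts with CCT in tubulin and actin folding, differed by 0.14 (adjusted p = 0.728 from limma), and the prefoldin subunit Pfdn2 by -0.14 (adjusted p = 0.786). The other prefoldin subunits were Pfdn1 at 0.07, Vbp1 at -0.03, Pfdn4 at -0.06, Pfdn5 at 0.05 and Pfdn6 at -0.0037. The prefoldin-like genes were Uri1 at -0.13, Uxt at -0.06 and Pdrg1 at 0.06, and Pdcl and Txndc9 differed by -0.01 and -0.02. In TgS343D hearts the median of the 12 was -0.04.

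The other chaperonins contain the mitochondrial pair. Hspe1 had 2505, 3594 and 2664 in TgR211A hearts, 2174, 1854 and 1966 in TgS343D hearts and 1756 to 2532 in WT hearts. Hspd1, the ring of the same machine, had 4498, 5081 and 4800 in TgR211A hearts, 3826, 3933 and 4012 in TgS343D hearts and 3864 to 4512 in WT hearts. The differences from WT were 0.44 for Hspe1 (limma, adjusted p = 0.268) and 0.22 for Hspd1 (adjusted p = 0.277). Neither passed the threshold, and both had an unadjusted p under 0.05 (3.47% of all genes higher in TgR211A hearts). With the pairs of hearts as a block Hspe1 was 0.47 above the second WT set and passed (limma, adjusted p = 0.0104). Mkks and Bbs10, chaperonin-like genes of the primary cilium, differed by 0.13 and -0.14.

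No gene among the CCT clients and tubulin cofactors passed the test in TgR211A hearts against WT (limma), against 0.206% of all genes. Of these 46 genes 1, Ppp2r2a, had an unadjusted p under 0.05, and was lower, where 7.52% of all genes were under 0.05 and 4.05% in that direction. The 8 actins and actin-related genes had a median of -0.02 in TgR211A hearts against WT. Acta2, smooth muscle actin, differed by 0.29 with groups that did not overlap (limma, adjusted p = 0.817), as did 2.2% of all genes higher in TgR211A hearts, and by 0.12 without replicate 1 of the second WT set. Acta1, skeletal actin, differed by -0.38, by -0.18 without replicate 1 of the first WT set, by -0.19 without replicate 3 of that set or TgR211A replicate 3, and by 0.15 from the second WT set alone. The 12 tubulins had a median of 0.0064, with the highest value for Tubb4b (0.25, limma, adjusted p = 0.711). The 7 tubulin folding cofactors had a median of 0.05, with Arl2, a small GTPase that binds cofactor D, at 0.16. Of 14 G protein beta and WD40 genes, Ppp2r2a, a regulatory subunit of protein phosphatase 2A, differed by -0.25 (limma, adjusted p = 0.548). The 5 other clients lay between -0.05 (Stat3) and 0.09 (Smarcb1). In TgS343D hearts the lowest p among cofactors and clients was that of Tbca, a tubulin cofactor, at 0.19 (limma, adjusted p = 0.995).

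Inducible HSF1 targets held genes that passed the test in TgR211A hearts. All 14 genes lay above 0 against WT (49.5% of all genes did), with a median log2 difference of 0.52. Of them 13 were higher with an unadjusted p under 0.05 (limma, 3.47% of all genes). The test was passed by 6, all higher (0.125% of all genes). None passed in TgS343D hearts, with a median of 0.0051 and no unadjusted p under 0.05 (limma). Stip1, which links Hsp70 to Hsp90, had 610, 624 and 712 in TgR211A hearts, 491, 458 and 457 in TgS343D hearts and 412 to 478 in WT hearts (TgR211A against WT 0.56, limma, adjusted p = 0.00316). Hspa1a and Hspa1b, the inducible Hsp70 genes, rose by 1.73 and 1.48 on the log2 scale (adjusted p of 0.00316 and 0.00315 from limma). Without moderation of the variances both lost their call (adjusted p = 0.0568 each), as did Hsph1 (adjusted p = 0.102). This list was chosen with results of these hearts known and is no independent evidence. The difference between this list and the CCT genes was not tested. Of 6 measured transcription factors that have been tied to CCT genes, none passed the test. Gabpb1, part of an ETS factor, differed by 0.31 in TgR211A hearts against WT (limma, unadjusted p = 0.0347, adjusted p = 0.633), where 3.47% of all genes were higher with an unadjusted p under 0.05. Nrf1 differed by -0.29 (limma, unadjusted p = 0.0322, adjusted p = 0.6246), where 4.05% were lower and 1.98% lower without overlap, as Nrf1 was. Its mean over probe sets differed by -0.072.

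**Figure D5:**
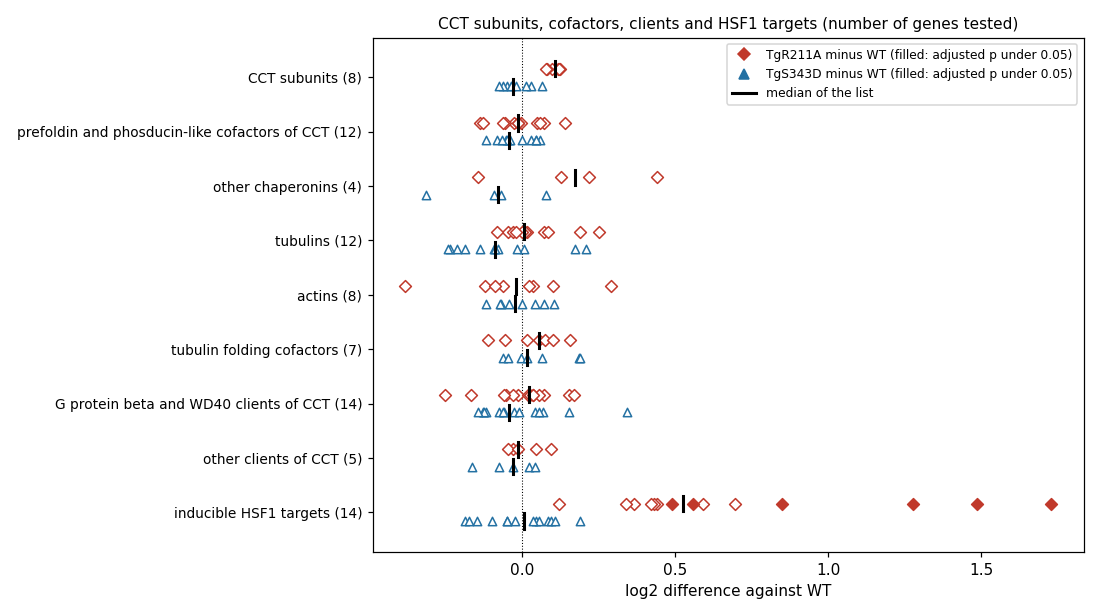
Each point is the log2 difference of 1 gene from WT, with TgR211A diamonds above TgS343D triangles in each row, the median as a bar and filled points where adjusted p was under 0.05. The CCT medians are 0.11 in TgR211A hearts and -0.03 in TgS343D hearts, and filled points occur among the HSF1 targets.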

How the data were processed

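Gene expression was measured in 12 hearts on Affymetrix mouse arrays. For each array the authors deposited linear MAS5 signal intensities with a common trimmed mean. The version of MAS5 is not given in the sources used here. Single scaled values carry no count of molecules, and the number of arrays limits the precision. Signals were taken to log2 here with nothing added. The 64 array controls were left out of 45101 features, and the 22519 of 45037 probe sets at or above the median mean log2 signal (5.44) were tested with limma 3.58.1 in R 4.3.3 (linear model, empirical Bayes with a trend, 3 genotype groups, two-sided, Benjamini-Hochberg). The WT sets and the contrast within ranges of heart numbers used 4 groups. Genes were represented by the probe set of highest mean signal. Single genes were also compared by exact permutation, with 84 splits for 3 hearts against 6.

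The members, the gene lists and the alternatives were chosen with earlier results of these data known. Named genes were all members, all genes of the prefoldin and other chaperonin lists, the 4 of lowest p per list (2 for TgS343D), the 5 most like the members, and Ilk. Alternatives covered scaling, offset, filter, variance prior, weights, samples in the fit, a replicate block, each WT set alone, each heart left out and the probe set rule. Deviations from group means correlated above 0.1 in all 3 same-number pairs of TgR211A with the second WT set (0.119 to 0.179) and in 2 of 3 of TgS343D with the first (0.0709, 0.209 and 0.17), so a block of these pairs was added after the data were seen. The hearts of each such pair have consecutive heart numbers, and no label states a pairing. The procedure was tested on simulated data with noise independent between probe sets. How often it finds changes as small as those of the CCT genes is not given here. Start site windows came from RefSeq and were matched by symbol. The plots were made with Python 3.11.15 and matplotlib 3.10.9. Comparisons by infarction were not made, since the labels name no surgery.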

Additional observations from a re-analysis of the deposited data

Results flagged for a closer look

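Of the 20 tested CCT probe sets, 3 moved in opposite directions in the lines. In these every TgR211A heart was above the mean of the second WT set and every TgS343D heart below the mean of the first. The share of all probe sets that did so was not counted. The contrast given next uses the same values by which the 3 were picked. The change of TgR211A minus the change of TgS343D was 0.32 on the log2 scale for Cct2 1416037_a_at (limma, adjusted p = 0.582), 0.24 for Cct2 1433535_x_at (adjusted p = 0.637) and 0.22 for Cct6a 1455988_a_at (adjusted p = 0.742). The difference between the lines was thus tested and did not pass the threshold for any of them. Both Cct2 probe sets read the same gene. In the 20 WT groups of 6 hearts, 1 for each tested CCT probe set, no heart stood apart by Dixon's 95% criterion.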

How the results depend on the processing

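No CCT gene passed the threshold under any alternative run, and in TgR211A hearts against WT all 8 stayed above 0 in 28 of 28 settings, with values between 0.034 and 0.21 and a lowest adjusted p of 0.384 (limma). Of 816 values of single CCT genes under alternatives, 800 kept their direction and 16 reversed, all 16 in TgS343D hearts against WT. Leaving out 1 heart at a time gave a CCT median of 0.077 to 0.14 in TgR211A hearts against WT, -0.063 to 0.0052 in TgS343D hearts against WT, 0.092 to 0.16 for TgR211A against TgS343D, -0.068 to -0.014 between the WT sets and 0.14 to 0.20 for the change of TgR211A minus that of TgS343D. The causes of the shifts below were not tested.

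With each array centred on its median, the CCT median was 0.19 for TgR211A against TgS343D, -0.12 between the WT sets and 0.30 for the change of TgR211A minus that of TgS343D. The last was 0.10 with quantile normalization and 0.21 with the mean over the probe sets of a gene. Centring also turned Vbp1 (0.0091), Pfdn6 (0.031), Pdcl (0.022), Txndc9 (0.019) and Vhl (0.0051) in TgR211A hearts and Cct3 (-0.00703) and Cct8 (-0.022) in TgS343D hearts. Quantile normalization turned Actc1 (0.012, TgS343D) and array weights turned Pdcl (0.027, TgR211A). With the first WT set alone Tbcel (-0.019, TgR211A), Cct3 (-0.00446, TgS343D) and Cct8 (-0.00459, TgS343D) turned. With the second alone Pfdn4 (0.023), Pfdn6 (0.025), Pdcl (0.084), Acta1 (0.15) and Vhl (0.10) turned in TgR211A hearts and Cct5 (0.026) in TgS343D hearts. With the mean over probe sets Txndc9 (0.031), Bbs10 (0.024), Tubb4b (-0.00077), Vhl (0.17) and Stat3 (0.080) turned in TgR211A hearts, and Cct2 (0.011), Cct3 (-0.055), Cct7 (0.031) and Mkks (-0.095) in TgS343D hearts.

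Leaving out 1 heart at a time, values in TgR211A hearts ranged between -0.062 and 0.015 for Vbp1, -0.14 and 0.030 for Pfdn4, -0.0075 and 0.11 for Pfdn5, -0.051 and 0.032 for Pfdn6, -0.015 and 0.10 for Pdrg1, -0.14 and 0.14 for Pdcl, and -0.092 and 0.030 for Vhl. In TgS343D hearts they ranged between -0.00097 and 0.052 for Cct3, -0.097 and 0.0065 for Cct5, -0.068 and 0.0058 for Cct7, -0.046 and 0.058 for Cct8, and -0.14 and 0.0075 for Actc1.

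Counts of probe sets that passed moved more. TgR211A against WT gave 46, against 14 without moderation and 18 gene means. TgR211A against TgS343D gave 36, against 5 without moderation or without a trend, 55 with array weights, 16 with only those 2 groups or gene means, and 10 with TgR211A replicate 3 left out. Hspa1a, Hspa1b and Hsph1 lost their call without moderation (adjusted p of 0.0568, 0.0568 and 0.102).

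Replicate numbers are shared by the groups. Over all group pairs, 5 of 18 same-number pairs had a correlation of deviations above 0.1, with values from -0.205 to 0.209. Of pairs with different numbers 5 of 36 did, with values from -0.161 to 0.133. For 10 of 12 hearts the best correlation was with a heart of their own number. With a replicate block over all 4 groups 52 probe sets passed for TgR211A against WT in place of 46, and the CCT median stayed at 0.11 with no CCT gene passing. A replicate block within each set of heart numbers, chosen after seeing the data, gave a CCT median of 0.13 for TgR211A against the second WT set and 47 probe sets passing, against 33 without that block. Hspe1 (0.47, adjusted p = 0.0104) then passed in limma. Values that differ from those with all 6 WT hearts in direction (Pfdn4, Pfdn6, Pdcl, Acta1 and Vhl in TgR211A hearts, Cct3 and Cct8 in TgS343D hearts) are those given above for each WT set alone.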
